A study of Homo sapiens with 12 samples.

Results

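The genes described here are 36 parts of the core machinery that starts transcription by RNA polymerase II (RNAPII): the 12 RNAPII subunits POLR2A to POLR2L, TBP with 16 TBP-associated factors (TAFs), and 7 subunits of the initiation factors TFIIA, TFIIB, TFIIE and TFIIF. They were chosen by exact gene name from 23621 gene rows. All 36 were found once in each table, and all 36 passed the level filter that 14251 genes passed (an FPKM above 1 in at least 1 of 12 libraries); these are called active genes below. The filter took the highest of all libraries, so a gene that was high in a single condition could pass it.

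The study profiled 2 human ovarian cancer cell lines, KURAMOCHI (Ku) and COV362 (Cov), with THZ1. This compound bonds covalently to CDK7 and blocks it, and it acts on CDK12 and CDK13 too. Untransduced cells, grown with serum in RPMI (Ku) or DMEM (Cov), received DMSO, THZ1 50 nM or THZ1 250 nM for 6 hr, with 2 biological replicates of each, which gave 6 groups and 12 libraries. Polyadenylated RNA was sequenced with spike-in RNA added, and levels are FPKM (fragments scaled for transcript length and library size) normalised to the spike-in, so that a fall shared by most genes stays visible. Each line stands for a single tumour, no transgene or deletion is involved, and the lines were normalised in separate tables, so that they are set side by side here and never tested against each other. Per the study's methods the spike-in went into RNA adjusted for the number of cells, so the scale refers to the cell; the cell counts themselves were not analysed here. In bulk RNA, fewer cells of one kind and less RNA in each of them cannot be told apart.

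RNAPII is built of 12 subunits, 5 of which (POLR2E, POLR2F, POLR2H, POLR2K and POLR2L) also serve RNA polymerases I and III. At a promoter, TFIID (TBP and its TAFs) recognises the DNA, TFIIA and TFIIB lock it in place and bridge to the polymerase, TFIIF escorts the polymerase in, and TFIIE brings TFIIH, whose kinase CDK7 is the named target of THZ1. Most of these proteins work in fixed proportions, and many form pairs in which neither partner is stable alone.

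The summed FPKM of all gene rows fell from between 1227780 and 1234308 in the Ku DMSO libraries to between 607016 and 662890 at 250 nM, and from between 1472395 and 1686567 to between 758681 and 764273 in Cov cells. Read depth is not given by FPKM, so no counting interval can be attached. PAX8, the Müllerian lineage factor, was at 132 to 140 FPKM in Ku and 120 to 128 in Cov cells under DMSO. KRT8 and KRT18, simple epithelial keratins, were at 744 FPKM or more in every DMSO library. The other labelled markers were uneven, with EPCAM, KRT7 and MUC16 at 4.68 or less in Ku and WT1 at 0.741 or less in Cov cells under DMSO. The 4 immune markers were at 1.63 or less in every library, with CD14 the highest and CD3E at 0.119 or less. Among 3 endothelial genes CDH5 reached 8.67, and among 4 fibroblast genes COL1A2 stood at 40.4 to 44.1 in Cov DMSO libraries while DCN stayed at 0.128 or less in all libraries of both lines.

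The promoter stretches of 4 of these genes are printed first, and the genes were picked by their levels. GTF2E1 had the lowest remaining share at 250 nM, GTF2B and POLR2A stood higher at 50 nM than under DMSO in Ku cells, and POLR2L was among the least changed. Promoter sequence was not tested against the changes. Each line gives the 200 bases before the annotated start, 5′ to 3′ on the strand of the gene, from RefSeq on GRCh38.p14. Capitals mark matches on either strand to 5 motifs. These were the TATA box TATAAA, the NF-Y motif CCAAT (which reads ATTGG from the opposite strand), the GC box GGGCGG, the ETS core CCGGAAG and the NRF1 motif, which is GCGC followed by any base and then by TGCGC.
GTF2E1, chr3:120742544-120742743, plus strand: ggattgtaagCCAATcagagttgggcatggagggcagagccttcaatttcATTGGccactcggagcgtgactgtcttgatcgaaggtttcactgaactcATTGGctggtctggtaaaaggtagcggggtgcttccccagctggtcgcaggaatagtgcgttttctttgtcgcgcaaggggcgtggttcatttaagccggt
GTF2B, chr1:88891568-88891767, minus strand: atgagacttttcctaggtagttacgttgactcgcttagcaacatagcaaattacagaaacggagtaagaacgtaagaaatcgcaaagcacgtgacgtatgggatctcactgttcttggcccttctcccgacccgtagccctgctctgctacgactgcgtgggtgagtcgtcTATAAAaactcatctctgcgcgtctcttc
POLR2A, chr17:7484166-7484365, plus strand: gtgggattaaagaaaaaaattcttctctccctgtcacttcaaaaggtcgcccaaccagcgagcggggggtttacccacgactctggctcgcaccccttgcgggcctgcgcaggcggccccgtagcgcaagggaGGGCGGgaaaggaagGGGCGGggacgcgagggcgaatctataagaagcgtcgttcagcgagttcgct
POLR2L, chr11:842530-842729, minus strand: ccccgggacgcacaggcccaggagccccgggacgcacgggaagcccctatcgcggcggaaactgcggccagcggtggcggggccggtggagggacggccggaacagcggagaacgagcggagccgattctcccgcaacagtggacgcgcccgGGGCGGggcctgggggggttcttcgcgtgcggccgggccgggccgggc
GTF2E1 carried 3 CCAAT matches and GTF2B a TATAAA that began 29 bases before its start, while POLR2A and POLR2L carried GC boxes alone. Of the 36 genes, 28 matched a promoter entry, and over their 250 bases before the start TATAAA occurred in 1 of 28, against 5.29% of 10050 promoters of active genes and 11.1% of all 27305. CCAAT occurred in 7 of 28 (35% of active-gene promoters and 33% of all), the GC box in 16 (67.2% and 42.3%), the ETS core in 9 (15.5% and 8.82%) and the NRF1 motif in 8 (10.2% and 5.53%). These matches describe letters in a window and were set against no measurement of binding.

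Under DMSO the machinery spanned a wide range of levels. In Ku cells the highest were POLR2G at 189 ± 6.23 FPKM (mean ± SD, n = 2), POLR2L at 171 ± 9.59 and POLR2K at 159 ± 17.1, and the lowest was TAF4B at 2.29 ± 0.225. In Cov cells POLR2L (198 ± 10.7), POLR2H (180 ± 9.65) and POLR2G (165 ± 12.4) led and TAF3 was lowest at 7.36 ± 0.33. Small polymerase subunits therefore stood at the top in both lines, and TAF1, TAF3, TAF5 and TAF8, scaffold and chromatin-reading parts of TFIID, stood near the bottom at 6.17 to 11 FPKM. Of the 35 neighbouring pairs in this order, the libraries of 15 in Ku and 16 in Cov cells did not overlap, so the order of the other neighbours does not exceed the replicate spread.

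**Figure D1:**
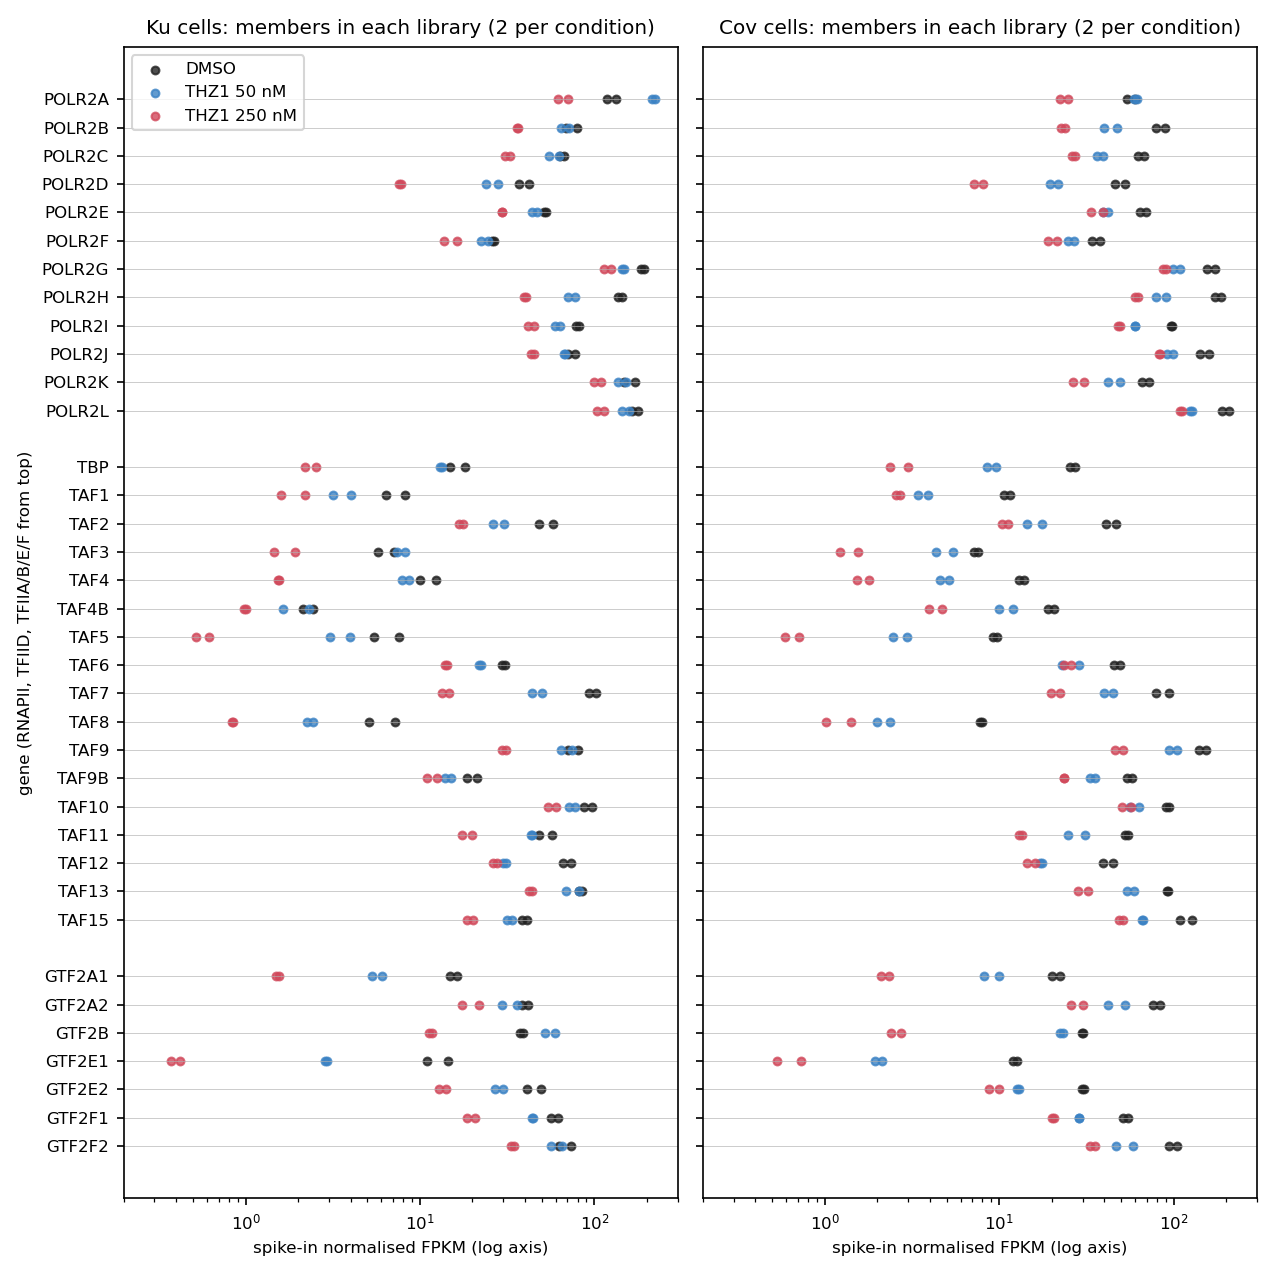
Level of each of the 36 genes in every library of Ku (left) and Cov cells (right), as spike-in normalised FPKM on a log axis; each point is 1 library, with 2 per condition. On this scale the 250 nM points lie to the left of the DMSO points for every gene, and GTF2E1 has the lowest single value in each line, 0.376 in Ku and 0.529 in Cov.

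At THZ1 250 nM the whole machinery was lower on the spike-in scale. In Ku cells 33 of the 36 genes fell (limma, Benjamini-Hochberg adjusted p under 0.001 over all active genes, and more than 0.5 on the log2 scale), where 68.6% of active genes did. In Cov cells all 36 fell, where 84% of active genes did. No member rose in either line, at this threshold or at an unadjusted p under 0.05 (0 and 0 members), where 0.0491% and 0.105% of active genes were called higher. Both treated libraries lay below both DMSO libraries for 36 of 36 members in each line, as for 95.9% of active genes in Ku and 95.6% in Cov cells. On FPKM + 1, which compresses the change of low genes, the 36 had a median log2 fold change of -1.16 in Ku and -1.56 in Cov cells. All active genes had medians of -1.11 and -1.31. By share left the median member kept 41.9% and 33.6%, beside 36.3% and 33% for the median active gene, so it was not lower by that measure. The share of the 36 in the summed gene FPKM in Ku cells was 0.168% to 0.18% under DMSO and 0.156% to 0.162% at 250 nM. For Cov cells these shares were 0.149% to 0.157% and 0.125% to 0.127%. By this measure the list as a whole moved much as other genes did, and the differences within it were larger: single members ran from -0.60 to -3.28 in Ku and from -0.76 to -3.12 in Cov cells.

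The direction of most members rests on the spike-in. When libraries were instead scaled to a common median ratio, which moved the median of all active genes to 0 in Ku and 0.01 in Cov cells, 20 of 36 members turned positive in each line. Of 14251 active genes, 7117 in Ku and 7215 in Cov cells were positive. On that scale 8 members remained lower in Ku cells (GTF2A1, GTF2E1, POLR2D, TAF4, TAF5, TAF7, TAF8 and TBP) and 4 were higher (POLR2A, POLR2G, POLR2J and POLR2K), where 19% and 11.1% of active genes were called. In Cov cells 7 were lower (GTF2A1, GTF2B, GTF2E1, POLR2D, TAF4, TAF5 and TBP) and 4 higher (POLR2G, POLR2I, POLR2J and POLR2L), where 18.9% and 8.57% were. With libraries scaled to an equal median 28 members in Ku and 26 in Cov cells were positive, but the medians of all active genes were then 0.29 and 0.31. Members negative on all 3 scales were GTF2A1, GTF2E1, POLR2D, TAF4, TAF5, TAF8 and TBP in both lines, TAF7 in Ku and GTF2B, TAF3 and TAF4B in Cov cells. Falls below are falls on the spike-in scale. A gene's side of the active-gene median is given on that scale too, and it can change: TAF12, below the median in Ku cells, was at 0.09 with the common-median-ratio scaling, where the median was 0. The side can also differ by share left: TAF12 kept 38.7% in Ku cells, beside 36.3% for the median active gene.

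**Figure D2:**
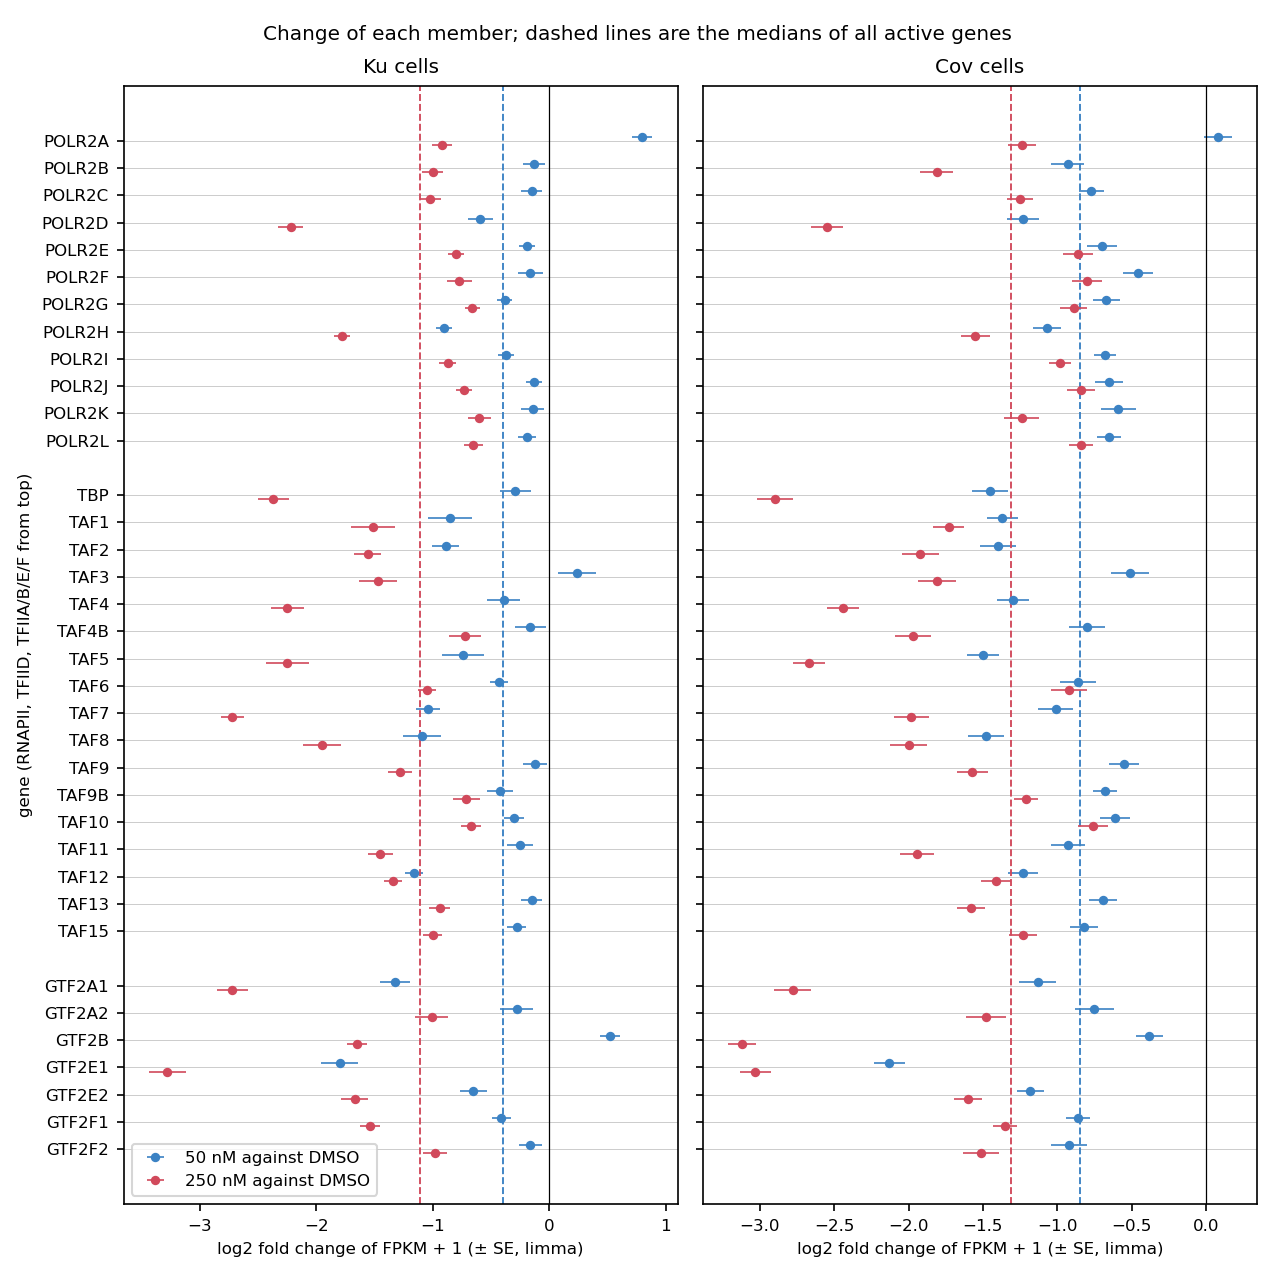
Log2 fold change of FPKM + 1 for each gene at 50 nM (blue) and 250 nM (red) against DMSO, with the standard error from limma; the left panel is Ku and the right Cov cells. Dashed lines mark the medians of all active genes (-0.40 and -1.11 in Ku, -0.85 and -1.31 in Cov), and most RNAPII subunits lie to the right of the red line while most TFIID and initiation factor genes lie to its left.

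Most RNAPII subunits lay above the median gene, a difference that was not tested. In Ku cells the median subunit retained 55.4% of its DMSO level at 250 nM and in Cov cells 45.7%, beside 36.3% and 33% for the median active gene. The log2 fold change lay above the median of active genes for 10 of 12 subunits in Ku (median -0.83) and 9 of 12 in Cov cells (median -1.11). On the common-median-ratio scale the same 12 had medians of 0.59 and 0.47. The 5 subunits shared with polymerases I and III retained a median of 57.3% and 54.7%.

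The least changed subunits were small ones, POLR2K and POLR2L in Ku and POLR2F, POLR2J and POLR2L in Cov cells. POLR2K, a zinc-binding peptide, stood at 171 and 147 FPKM in the Ku DMSO libraries, 151 and 136 at 50 nM and 109 and 99.4 at 250 nM. Its libraries at 250 nM did not overlap those under DMSO, but the change of -0.60 ± 0.1 (log2 ± SE) did not pass the threshold (adjusted p = 0.00144). In Cov cells POLR2K went from 65.4 and 71.9 through 41.8 and 49.2 to 30.6 and 26.4, a change of -1.24 ± 0.117 (adjusted p = 2.87e-05) that left 41.5% and lay close to the active-gene median of -1.31. POLR2L, a subunit shared by all 3 polymerases, stood at 165 and 178 under DMSO, 144 and 157 at 50 nM and 114 and 104 at 250 nM in Ku cells, and fell by 0.65 on the log2 scale. The Cov libraries were at 190 and 206, then 127 and 124, then 108 and 112, a log2 fold change of -0.84 ± 0.08. POLR2F stood at 34.0 and 37.9 in the Cov DMSO libraries, at 26.8 and 24.9 at 50 nM and at 19.0 and 21.4 at 250 nM, the smallest fall of a subunit in that line (-0.80 ± 0.101, adjusted p = 0.000149). Under the common-median-ratio scaling these 3 were positive in both lines. POLR2E, POLR2G and POLR2I, which fell by 0.80, 0.66 and 0.87 on the log2 scale in Ku and by 0.86, 0.89 and 0.98 in Cov cells, behaved alike and turned positive with that scaling as well.

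POLR2J, which pairs with POLR2C early in polymerase assembly, stood at 77.2 and 70.7 FPKM, 67.7 and 66.7, and 45.3 and 43.3 across the 3 conditions of Ku cells. In Cov cells its values were 141 and 160, 99.6 and 91.3, and 83.9 and 82.8. It fell by 0.73 and 0.84 on the log2 scale at 250 nM, and POLR2C by 1.02 and 1.25. POLR2J has near-identical copies, and how reads were split between them is uncertain: POLR2J2, POLR2J3 and POLR2J4 changed by -0.48, -0.47 and -0.52 in Ku cells without passing the threshold, and fell by 0.71, 0.65 and 0.76 in Cov cells.

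On the log2 fold change of FPKM + 1, POLR2D and POLR2H lay below the median gene in both lines. POLR2D, which forms the stalk of the polymerase together with POLR2G, stood at 42.3 and 37.0 FPKM under DMSO, 27.9 and 24.0 at 50 nM and 7.8 and 7.56 at 250 nM in the Ku libraries. Its level in Cov cells was 46.3 and 52.8, 19.4 and 21.6, and 8.03 and 7.19. Its log2 fold changes at 250 nM were -2.22 ± 0.109 and -2.55 ± 0.108 (adjusted p = 1.27e-05 and 1.05e-06), and it was below the median of active genes on each of 3 scales. POLR2H, a subunit shared with polymerases I and III, changed by -1.78 and -1.55. In Ku cells it was positive with the equal-median scaling (0.18), but below the active-gene median of 0.29 on that scale. In Cov cells it was positive with both other scalings (0.05 and 0.51), where the active-gene medians were 0.01 and 0.31. It kept 28.6% in Ku and 33.8% in Cov cells, beside 36.3% and 33% for the median active gene. POLR2B, the second largest subunit, was above the median gene in Ku cells (-1.0) and below it in Cov cells (-1.81).

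POLR2A, the largest subunit, whose C-terminal repeats are the substrate of CDK7, peaked at 50 nM in Ku cells, as GTF2B and TAF3 did. In Cov cells POLR2A alone among the members had a mean that did not drop at 50 nM. The gene lies at chr17:7387685-7417933 on the plus strand of GRCh37 (hg19) and its main transcript has 30 exons. In Ku cells it stood at 133 and 118 FPKM under DMSO, 223 and 215 at 50 nM and 61.8 and 70.2 at 250 nM. Both libraries at 50 nM lay far above the DMSO libraries and both at 250 nM lay below them. The rise at 50 nM was 0.80 ± 0.0879 on the log2 scale (adjusted p = 0.000993), in a comparison where 0.0842% of active genes were called higher, and it was larger with the other scalings (1.35 and 1.5). With the replicate number added to the model as a block, this call was lost. In Cov cells the values were 54.1 and 60.0, 61.4 and 58.9, and 22.3 and 24.8, so that 50 nM overlapped DMSO (0.08 ± 0.0939, adjusted p = 0.456) while all active genes had a median of -0.85. At 250 nM POLR2A fell by 0.92 and 1.24 on the log2 scale, and with the common-median-ratio scaling it was 0.53 and 0.33. The call at 50 nM in Ku cells lay just inside the threshold: without any 1 of the 6 Ku libraries the adjusted p was between 0.00213 and 0.00675 at a log2 fold change of 0.72 to 0.88.

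The TFIID genes had lower medians than the RNAPII subunits in both lines, a difference that was not tested. The 17 genes retained a median of 35.4% in Ku and 24.6% in Cov cells at 250 nM, with median log2 fold changes of -1.45 and -1.81, and 11 of 17 in Ku and 13 of 17 in Cov cells lay below the median of active genes. In Ku cells 15 of 17 fell, where 68.6% of active genes did, and in Cov cells all 17, where 84% did, while with the common-median-ratio scaling 8 in Ku and 7 in Cov cells turned positive.

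TBP, the subunit that binds the TATA box, was among the largest falls. It stood at 18 and 14.9 FPKM in the Ku DMSO libraries, 13.4 and 13.1 at 50 nM, and 2.19 and 2.53 at 250 nM. In Cov cells it stood at 25.4 and 27.1, 8.45 and 9.55, and 2.36 and 2.98. At 250 nM 14.4% and 10.2% of the DMSO level remained (log2 fold changes of -2.37 ± 0.132 and -2.90 ± 0.12, adjusted p = 1.75e-05 and 1.01e-06), and TBP stayed called lower with every scaling tried. At 50 nM Ku cells kept 80.4% of the TBP transcript and Cov cells 34.3%, beside 70% and 49.1% for the median active gene.

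TAF7, an inhibitor of the acetyltransferase activity of TAF1, is encoded by a single exon of 2.29 kb. It stood at 102 and 92.8 FPKM under DMSO, 50.2 and 43.6 at 50 nM and 13.3 and 14.6 at 250 nM in Ku cells, and it fell by 2.72 on the log2 scale (SE 0.0993). The Cov libraries were at 79.1 and 93.4, 39.8 and 45.0, and 22.4 and 19.9 and fell by 1.98. On the equal-median scale this was 0.05, below the active-gene median of 0.31 there. TAF5, a WD-repeat scaffold, stood at 7.59 and 5.48 FPKM, 3.96 and 3.05, and 0.615 and 0.517 in Ku and at 9.19 and 9.75, 2.47 and 2.96, and 0.593 and 0.706 in Cov cells. It kept 8.67% and 6.86% at 250 nM, and TAF8 13.6% and 15.5%. TAF1, TAF2 and TAF11 changed by -1.51, -1.56 and -1.45 in Ku and by -1.73, -1.92 and -1.94 in Cov cells, all below the median gene. With the equal-median scaling they were between 0 and 0.47, where active genes had medians of 0.29 in Ku and 0.31 in Cov cells.

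TAF10, a histone-fold subunit that TFIID shares with the SAGA coactivator, was the least changed TAF. It stood at 87.1 and 97.1 FPKM under DMSO, 77 and 71.8 at 50 nM and 60.5 and 54.1 at 250 nM in the Ku libraries. Its level in Cov cells was 90.0 and 93.4, 63.5 and 55.8, and 50.2 and 57.2. The libraries at 250 nM lay below DMSO in both lines, with log2 fold changes of -0.67 ± 0.0882 and -0.76 ± 0.102, and these turned to 0.76 and 0.83 with the common-median-ratio scaling. TAF6, TAF9B and TAF15, an RNA-binding protein that associates with TFIID, also lay above the median gene in both lines, at -1.05, -0.71 and -1.0 in Ku and -0.92, -1.21 and -1.23 in Cov cells.

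Paralogs were left at different shares. TAF4, the TFIID scaffold that binds activators, stood at 12.3 and 10.0 FPKM under DMSO, 8.63 and 7.84 at 50 nM and 1.55 and 1.54 at 250 nM in the Ku libraries. Its paralog TAF4B stood at 2.45 and 2.13, 2.3 and 1.63, and 0.977 and 1.01 in the same libraries. In Cov cells TAF4 stood at 13.0 and 13.8, 4.57 and 5.15, and 1.53 and 1.78, and TAF4B at 19.0 and 20.6, 10 and 12, and 4.71 and 3.95. TAF4 exceeded TAF4B in every Ku library (ratios of 4.71 to 5.03 under DMSO and 1.52 to 1.58 at 250 nM) and was below it in every Cov library (0.671 to 0.682 and 0.325 to 0.449). In Ku cells TAF4 fell by 2.25 on the log2 scale, while TAF4B changed by -0.72 ± 0.136 (adjusted p = 0.00254) and did not pass, at levels where the added 1 FPKM compresses the change.

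TAF9 stood at 80.7 and 70.1 FPKM, 74.6 and 64.5, and 29.6 and 31.1 in Ku and at 139 and 154, 93.4 and 105, and 51.4 and 46.1 in Cov cells. Its paralog TAF9B stood at 21.1 and 18.5, 15 and 14, and 12.5 and 10.9 in Ku and at 53.7 and 57.7, 33.3 and 35.2, and 23.6 and 23.4 in Cov cells. The ratio of TAF9 to TAF9B was 3.79 to 3.82 under DMSO, 4.61 to 4.98 at 50 nM and 2.37 to 2.85 at 250 nM in Ku cells, so it rose and then dropped. AK6 overlaps TAF9 on the same strand, so how their reads were split is uncertain.

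The largest falls on FPKM + 1 were of initiation factors, GTF2E1 in Ku and GTF2B in Cov cells. All 7 genes of TFIIA, TFIIB, TFIIE and TFIIF fell in both lines at 250 nM, where 68.6% and 84% of active genes did. Their medians were -1.65 in Ku and -1.60 in Cov cells, beside -1.11 and -1.31 for active genes. With the common-median-ratio scaling 2 in Ku and 3 in Cov cells turned positive.

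GTF2E1, the large subunit of TFIIE, lies at chr3:120461484-120501916 on the plus strand of GRCh37. It stood at 14.5 and 10.9 FPKM under DMSO, 2.94 and 2.86 at 50 nM and 0.423 and 0.376 at 250 nM in the Ku libraries. In Cov cells it stood at 11.9 and 12.6, 1.95 and 2.12, and 0.529 and 0.728. All 3 conditions were separate in both lines. It kept 3.15% and 5.13% of its DMSO level at 250 nM, and the log2 fold changes on FPKM + 1 (-3.28 ± 0.159 and -3.03 ± 0.105) understate this. Of all active genes 2.3% had a lower log2 fold change in Ku and 3% in Cov cells. At 50 nM it also had the largest fall of the 36 (-1.80 and -2.13).

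GTF2A1, which encodes the precursor of the 2 large subunits of TFIIA, stood at 16.4 and 14.8 FPKM, 6.03 and 5.29, and 1.49 and 1.56 in Ku cells. The Cov libraries were at 20.0 and 22.2, 8.19 and 10.0, and 2.33 and 2.09. It kept 9.78% and 10.5% at 250 nM and, as GTF2E1 did, stayed called lower with every scaling tried. GTF2E2, GTF2F1, GTF2F2 and GTF2A2 fell by 1.67, 1.54, 0.98 and 1.01 on the log2 scale in Ku and by 1.60, 1.35, 1.51 and 1.48 in Cov cells.

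GTF2B, the single-chain factor TFIIB that positions the polymerase at the start site, lies at chr1:89318316-89357627 on the minus strand of GRCh37. It stood at 39.2 and 37.5 FPKM under DMSO, 59.4 and 51.9 at 50 nM and 11.7 and 11.3 at 250 nM in the Ku libraries. Its level in Cov cells was 29.6 and 30.2, 22.3 and 23.3, and 2.72 and 2.38. Both Ku libraries at 50 nM were above both DMSO libraries and both Cov libraries were below theirs, although neither change passed (0.52 ± 0.0869, adjusted p = 0.00395, and -0.38 ± 0.093, adjusted p = 0.00603). With the common-median-ratio scaling both were positive (1.06 and 0.61). At the higher dose GTF2B changed by -1.65 (log2) in Ku (0.24 on the equal-median scale, where the active-gene median was 0.29) and by -3.12 in Cov cells, the largest change of the 36 there on FPKM + 1, with 30.1% and 8.53% of the transcript left. By the share left, GTF2E1 (5.13%) and TAF5 (6.86%) were lower in Cov cells.

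At the lower dose the lines gave different counts. With 50 nM 5 members fell in Ku cells (GTF2A1, GTF2E1, POLR2H, TAF7 and TAF12), where 11.3% of active genes did, and 29 in Cov cells, where 70.5% did. POLR2A rose in Ku cells and no member rose in Cov cells (0 also at an unadjusted p under 0.05), where 0.0772% of active genes did. Both treated libraries lay below both DMSO libraries for 28 of 36 members in Ku and 35 of 36 in Cov cells, beside 75.8% and 95.7% of active genes. The medians were -0.30 in Ku and -0.84 in Cov cells, beside -0.40 and -0.85 for all active genes, and both medians turned positive with the common-median-ratio scaling (0.22 and 0.15). None of the 5 falls in Ku cells stayed past the threshold without any 1 Ku library, including the 250 nM libraries, which add only to the estimate of the spread. In Cov cells the count went from 29 to 12 without DMSO replicate 2. The lines were not tested against each other, and the 7 members that did not pass in Cov cells were GTF2A2, GTF2B, POLR2A, POLR2F, POLR2K, TAF3 and TAF9.

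From 50 to 250 nM 23 members fell in Ku cells, where 36% of active genes did, and 15 in Cov cells, where 24.4% did, and none rose (0 in both lines also at an unadjusted p under 0.05), where 0.0421% and 0.0842% of active genes did. The count in Ku cells ranged from 3 to 7 without either library of 50 nM or 250 nM, and in Cov cells it was 9 and 7 without 250 nM replicate 1 and replicate 2. The mean level dropped at both steps for 33 of 36 members in Ku cells, all but POLR2A, GTF2B and TAF3, and for 35 of 36 in Cov cells, all but POLR2A. Among active genes the share was 85.7% and 85.9%.

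TAF3, which reads the methylated histone tail at promoters, and TAF12, a histone-fold partner of TAF4, show the contrast in dose. TAF3 stood at 7.12 and 5.76 FPKM under DMSO, 8.16 and 7.36 at 50 nM and 1.46 and 1.91 at 250 nM in Ku cells, and at 7.13 and 7.59, 4.36 and 5.41, and 1.54 and 1.22 in Cov cells. TAF12 stood at 73.1 and 66.2, 31.2 and 29.9, and 27.8 and 26.2 in Ku cells, and at 39.4 and 44.9, 17.5 and 17.1, and 16.0 and 14.5 in Cov cells. Most of the loss of TAF12 was already present at 50 nM, where 43.9% and 41.1% remained, beside 38.7% and 36.2% at 250 nM. TAF3 kept 120% in Ku and 66.4% in Cov cells at 50 nM, and 26.1% and 18.8% at 250 nM.

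**Figure D3:**
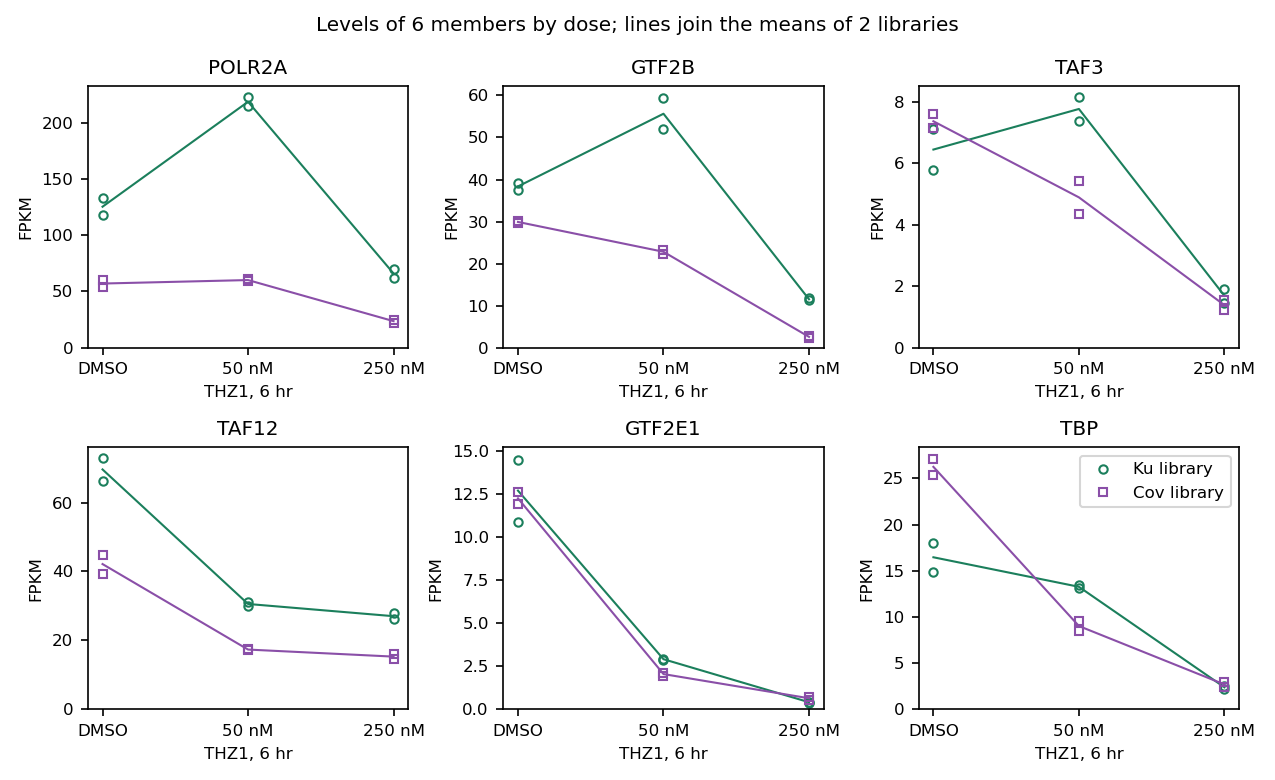
FPKM of 6 genes by dose in Ku (circles) and Cov cells (squares); each symbol is 1 library and lines join the means of 2, with the vertical axes starting at 0. POLR2A, GTF2B and TAF3 peak at 50 nM in Ku cells, TAF12 and GTF2E1 lose most of their level by 50 nM, and TBP lies between 2.19 and 2.98 in all 4 libraries at 250 nM.

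Partner subunits were compared as a ratio within each library, a quantity that no scaling of libraries can change. Such a ratio of 2 against 2 libraries cannot reach an exact two-sided permutation p below 0.33, so these are descriptions; the pairs were picked after the levels were seen. The ratio of GTF2E1 to GTF2E2, which form TFIIE together, was 0.294 and 0.265 in the Ku DMSO libraries, 0.0988 and 0.107 at 50 nM and 0.033 and 0.0266 at 250 nM. In Cov cells it was 0.389 and 0.422, 0.155 and 0.164, and 0.0535 and 0.0829. The mean ratio thus dropped 9.38-fold in Ku and 5.95-fold in Cov cells, with no overlap between conditions. GTF2A1 over GTF2A2, the TFIIA pair, dropped 4.91-fold and 3.33-fold, TAF8 over TAF10 4.63-fold and 3.74-fold, and POLR2D over POLR2G, the stalk pair, 3.25-fold and 3.48-fold, again without overlap in either line.

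TAF4 over TAF12, histone-fold partners, was 0.168 and 0.151 under DMSO, 0.276 and 0.262 at 50 nM and 0.0557 and 0.0587 at 250 nM in Ku cells, and 0.33 and 0.308, 0.261 and 0.301, and 0.0956 and 0.123 in Cov cells. It dropped 2.79-fold and 2.92-fold from DMSO to 250 nM without overlap, although in Ku cells it was higher at 50 nM. TAF1 over TAF7 was 1.81-fold higher at 250 nM in Ku cells, without overlap, while in Cov cells it was 1.49-fold lower at 50 nM without overlap and overlapped DMSO at 250 nM. TAF6 over TAF9 was lower at 50 nM (0.319 against 0.402 in Ku and 0.261 against 0.324 in Cov cells) and 1.15-fold and 1.56-fold higher than DMSO at 250 nM, each without overlap.

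Apart from the paralogs given above, the remaining pairs changed by about 1.5-fold or less at 250 nM. GTF2F1 over GTF2F2, the TFIIF pair, was 0.841 and 0.895 under DMSO and 0.599 and 0.557 at 250 nM in Ku cells, and 0.545 and 0.525 against 0.568 and 0.621 in Cov cells, so the lines moved in opposite directions. POLR2C over POLR2J dropped 1.23-fold and 1.35-fold, and TAF11 over TAF13 1.46-fold and 1.33-fold. The ratio of POLR2A to POLR2B, the 2 largest RNAPII subunits, was higher at 50 nM in both lines, at 3.13 and 3.35 against 1.68 and 1.73 in Ku and at 1.54 and 1.24 against 0.685 and 0.673 in Cov cells. At 250 nM it was 1.7 and 1.94 in Ku cells, which overlaps DMSO, and 0.938 and 1.09 in Cov cells, which does not.

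**Figure D4:**
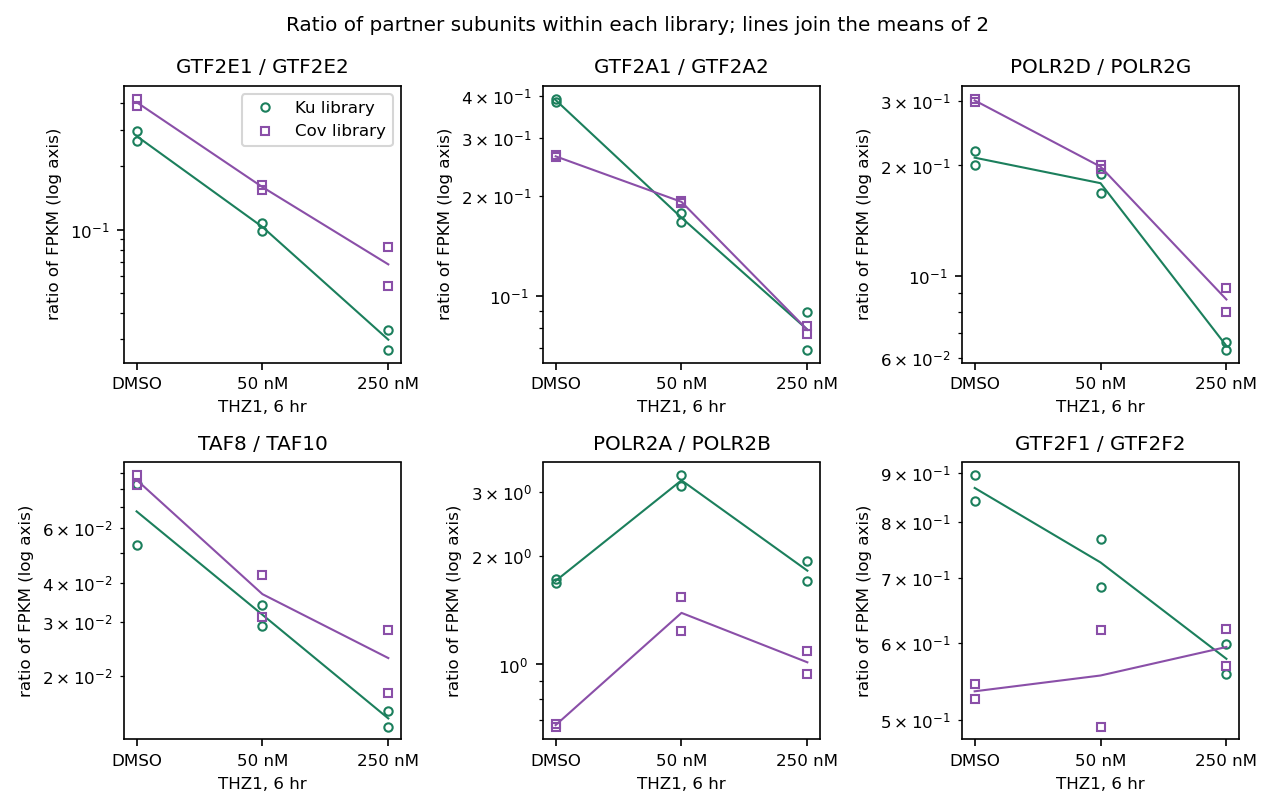
Ratio of the FPKM of 2 partner genes within each library on a log axis, for Ku (circles) and Cov cells (squares), with lines through the means of 2 libraries. The first 4 ratios drop with dose in both lines, POLR2A over POLR2B is highest at 50 nM in both, and GTF2F1 over GTF2F2 drops in Ku cells alone.

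Length and DMSO level were set beside the change at 250 nM as a description, with no test. On the log2 fold change of FPKM + 1, 18 members lay below the median of active genes at 250 nM in both lines and 13 above it. Another 5 were above it in Ku and below it in Cov cells (GTF2A2, GTF2F2, POLR2B, TAF4B and TAF13). By share left the sides differ. TAF9 (40.3% and 33.3%) and TAF12 (38.7% and 36.2%) were above the active-gene medians of 36.3% and 33% in both lines. POLR2H (33.8%), GTF2F1 (38.2%), GTF2A2 (35%) and GTF2F2 (34.4%) were above it in Cov cells. The main transcripts of the 18 had a median genomic length of 35.8 kb and those of the 13 a median of 8.8 kb, while 12757 active genes with an annotation had 26.4 kb. Across the 36 genes the Spearman correlation of length with log2 fold change at 250 nM was -0.38 in Ku and -0.52 in Cov cells, and over the 12757 genes 0 and -0.10. The correlation with the mean level under DMSO was 0.47 and 0.62 across the members and -0.36 and -0.42 across all 14251 active genes. The change is on FPKM + 1, which compresses low genes, and the DMSO libraries enter both quantities. How this bears on the opposite signs was not tested. All these correlations are descriptions across genes of the same libraries, which are not independent replicates. The single-exon gene TAF7, at 2.29 kb, is an exception to the pattern in length. So are the long genes GTF2F2 (164.38 kb, -0.98) and TAF4B (165.24 kb, -0.72) in Ku cells.

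**Figure D5:**
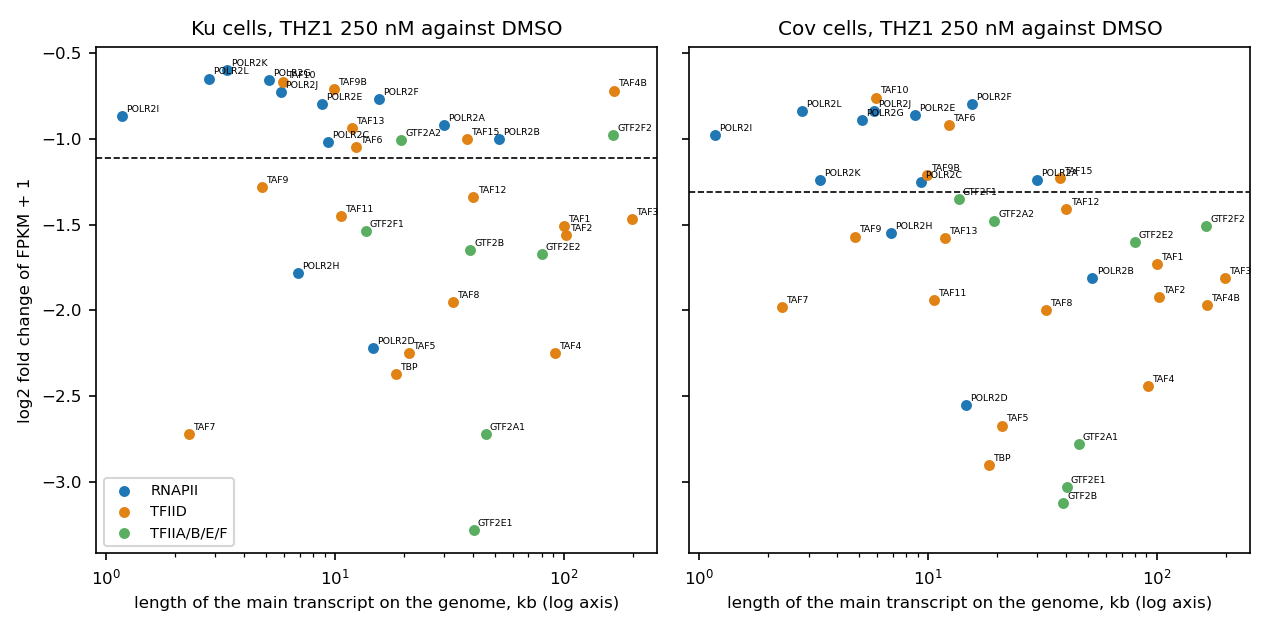
Log2 fold change at 250 nM against DMSO by the genomic length of the main transcript (kb, log axis) for the 36 genes in Ku (left) and Cov cells (right), coloured by complex; the dashed line is the median of all active genes. Of the genes under 10 kb most lie above the line, with TAF7, TAF9 and POLR2H below it in both panels.

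The rest of the initiation machinery moved in the same range. Of the 10 TFIIH genes 8 fell in Ku and 10 in Cov cells at 250 nM, with medians of -1.47 and -1.57. Among active genes 68.6% and 84% fell, with medians of -1.11 and -1.31, and these values are the background for the next lists too. CDK7, the kinase that THZ1 binds, fell by 2.44 and 2.59 on the log2 scale, from 26.3 and 19.5 FPKM to 3.49 and 3.22 in Ku and from 44.7 and 47.4 to 7.18 and 6.45 in Cov cells. Its cyclin CCNH changed by -0.61 in Ku cells without passing (adjusted p = 0.00383) and fell by 1.51 in Cov cells. Of 16 genes for polymerase assembly, phosphatases of the RNAPII tail and TBP regulators, 15 and 16 fell, beside the same 68.6% and 84%, with medians of -1.61 and -1.64. GPN2, a GTPase of polymerase assembly, fell by 3.27 and 2.45, and its relative GPN1 by 1.37 in Cov cells, with -0.63 in Ku cells not passing.

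Of 11 paralogs and near copies of the members 7 were active, and 4 fell in Ku and 7 in Cov cells, beside 68.6% and 84% of active genes. TBPL1, the TBP-like factor, fell by 3.23 and 3.31 on the log2 scale, from 44.3 and 42.0 FPKM to 4.32 and 3.18 in Ku and from 20.6 and 22.6 to 1.36 and 1.19 in Cov cells. TAF5L and TAF6L, the SAGA counterparts of TAF5 and TAF6, changed by -1.47 and -2.12 in Ku and by -2.39 and -2.03 in Cov cells, and all passed. TBPL2 and GTF2A1L, known for germ cells, lay at 0.133 FPKM or less in every library.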

How the data were processed

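RNA-seq was done on the Ku and Cov libraries described above. Per the study's methods and the labels, the authors aligned reads to hg19 with HISAT, quantified genes with Cufflinks tools (Cuffnorm) and normalised to ERCC spike-ins added to cell-count-adjusted RNA; the deposited values are FPKM, and 23713 rows per table include 92 spike-in rows, which were left out. Whether counting used strand is not given in the sources used here; 9 members overlap another annotated gene on the same strand and 19 on the opposite strand.

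Here log2(FPKM + 1) of 14251 active genes was fitted per line with limma 3.58.1 (3 groups of 2, empirical Bayes with a trend) in R 4.3.3, and the call required a Benjamini-Hochberg adjusted p under 0.001 together with more than 0.5 on the log2 scale. A fold change on this scale understates low genes. The alternatives were a pseudocount of 0.1, an FPKM above 10, no minimum, no trend, a replicate block, other scalings and thresholds, and leaving out each library. All 36 members are named, with every library value at least for the 4 largest falls and 2 smallest changes by log2 fold change at 250 nM in the line concerned, POLR2A, TBP and paralog pairs. GTF2E1, GTF2B, TAF3, TAF5, TAF12 and the partner ratios were singled out after their values were seen. The members and lists were chosen with earlier results of these data known. Transcript lengths come from GENCODE on GRCh37; all 36 members and 89.5% of active genes matched.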

Additional observations from a re-analysis of the deposited data

Results flagged for a closer look

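GTF2B and TAF3 moved in opposite directions in the lines at 50 nM, in every library. GTF2B had a log2 fold change of 0.52 in Ku and -0.38 in Cov cells, and TAF3 of 0.24 in Ku and -0.51 in Cov cells. On the spike-in scale no single change passed the threshold, and the difference between the lines was not tested, because the tables were normalised separately. With the common-median-ratio scaling both genes were positive in both lines (1.06 and 0.61 for GTF2B, 0.70 and 0.36 for TAF3), and GTF2B in Ku cells passed as higher on that scale (adjusted p = 0.000689), as none of the other 3 did.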

How the results depend on the processing

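The scaling decides the sign of most values. With median-of-ratios scaling the median log2 fold change of the members was 0.22, 0.15 and 0.01 in Ku cells (50 nM against DMSO, 250 nM against DMSO, 250 nM against 50 nM) and 0.15, 0.04 and -0.06 in Cov cells, and with equal-median scaling 0.34, 0.63 and 0.38 in Ku and 0.33, 0.50 and 0.21 in Cov cells. All active genes had equal-median medians of 0.1, 0.29 and 0.24 in Ku and 0.12, 0.31 and 0.21 in Cov cells. In the same order, median-of-ratios scaling called 1, 8 and 9 members lower in Ku cells (2.72%, 19% and 11.1% of active genes) and 2, 4 and 1 higher (0.519%, 11.1% and 1.39%). In Cov cells it called 0, 7 and 4 lower (0.772%, 18.9% and 7.92%) and 0, 4 and 0 higher (0.14%, 8.57% and 0.498%). Equal-median scaling called 0, 6 and 4 lower in Ku cells (0.737%, 11.6% and 6.55%) and 1 (POLR2A), 17 and 1 higher (0.112%, 26.9% and 6.46%), and 0, 7 and 2 lower in Cov cells (0.147%, 11.3% and 4.95%) and 0, 14 and 1 higher (0.0842%, 26.4% and 3.16%). At 250 nM against DMSO the members that turned positive with median-of-ratios scaling in Ku cells were GTF2A2 (0.40), GTF2F2 (0.45), POLR2A (0.53), POLR2B (0.43), POLR2C (0.41), POLR2E (0.63), POLR2F (0.62), POLR2G (0.79), POLR2I (0.56), POLR2J (0.71), POLR2K (0.85), POLR2L (0.80), TAF10 (0.76), TAF12 (0.09), TAF13 (0.49), TAF15 (0.41), TAF4B (0.16), TAF6 (0.34), TAF9 (0.15) and TAF9B (0.66). In Cov cells they were GTF2A2 (0.10), GTF2F1 (0.22), GTF2F2 (0.07), POLR2A (0.33), POLR2C (0.33), POLR2E (0.73), POLR2F (0.75), POLR2G (0.71), POLR2H (0.05), POLR2I (0.61), POLR2J (0.76), POLR2K (0.34), POLR2L (0.76), TAF10 (0.83), TAF12 (0.14), TAF13 (0.01), TAF15 (0.36), TAF6 (0.65), TAF9 (0.03) and TAF9B (0.36).

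At 50 nM in Ku cells the 5 lower and 1 higher calls became 11 and 2 at an adjusted p under 0.05 (40.2% and 0.618% of active genes) and 0 and 0 with no minimum FPKM (0.0127% and 0% of 23621 genes), and the higher call was lost (0) without the trend (0.0491%) and with a log2 fold change beyond 1 (0.0561%). That last threshold left 13 lower calls at 50 nM in Cov cells (35.5%) and 14 between the doses in Ku cells (25.2%), where no minimum FPKM left 8 (8.05%). A pseudocount of 0.1 moved the median between the doses in Cov cells to -0.64.

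Same-numbered libraries did not deviate together gene by gene (correlations of -0.07 to 0.028 over active genes). Such a correlation cannot see an offset shared by a whole library. The summed FPKM of the members was higher in replicate 1 in each Ku condition (2220 against 2070, 1850 against 1740 and 1030 against 984). In Cov cells replicate 2 was higher under DMSO and 50 nM (2520 against 2310 and 1440 against 1370), but not at 250 nM (958 against 961). A replicate block gave 2 lower and 0 higher members at 50 nM in Ku cells (6.94% and 0.0632% of active genes) and 6 lower between the doses in Cov cells (7.93%); other counts stayed within 1.5 times. At 250 nM against DMSO it called POLR2K (adjusted p = 6.44e-05) and TAF9B (0.000446) lower in Ku cells and lost TAF1 there and TAF6 and TAF10 in Cov cells.

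Without each library in turn, with a lone library assumed to vary like the other groups, the lower counts were 0 to 0, 23 to 31 and 3 to 21 in Ku cells (50 nM, 250 nM, between the doses) and 12 to 30, 32 to 36 and 7 to 16 in Cov cells, and the higher counts were 0 to 0. The medians ranged from -0.39 to -0.25, -1.24 to -1.13 and -0.91 to -0.75 in Ku and from -0.91 to -0.77, -1.62 to -1.49 and -0.70 to -0.49 in Cov cells. TAF4B at 50 nM in Ku cells ranged from -0.32 to 0.01, the latter without 50 nM replicate 2. The cause of these changes was not tested. FPKM give no depth, and with 2 libraries per group small changes could not be resolved.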
